A study of Mus musculus with 4 samples.

Results

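The cytosolic ribosomal protein genes were followed through blood mononuclear cells of mice with cerulein pancreatitis. Members were chosen by name, as every listed gene called Rps or Rpl followed by a digit, a lone a, or p or x and a digit, with the Rps6k kinases and the mitochondrial Mrps and Mrpl names left out. The rule took 89 of the 16152 gene names, and no measured value entered it. Of these, 69 carry the standard name of a ribosomal protein, 26 of the small subunit and 43 of the large one. A further 14 are names of copies or -like genes, 5 are repeated names with a number added (such as Rps27a.1), and 1, Rps19bp1, names a protein that binds a ribosomal protein.

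Ribosomal proteins are the protein part of the cytosolic ribosome, where they fold and steady the ribosomal RNA, and each ribosome needs its set in about equal amounts. Their messages are among the most abundant in any cell, and most begin with a run of pyrimidines, the 5′ terminal oligopyrimidine tract, through which mTOR signalling sets how strongly they are translated. In blood, lymphocytes are known to hold a larger share of such messages than monocytes and neutrophils. The share in whole blood samples therefore depends on which cells are in the sample as well as on what each cell holds.

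Single-cell libraries were made by the 10x Genomics 5′ method from Ficoll-isolated mononuclear cells of peripheral blood. All groups were wild-type C57BL/6J mice of 6 to 8 weeks, with no transgene. The control library was taken at 0 h, and the pancreatitis libraries at 12, 24 and 96 h after the first of 7 intraperitoneal injections of cerulein, a cholecystokinin analogue that makes the exocrine pancreas digest itself. The labels place 12 and 24 h in the initial phase and 96 h in recovery, while the study's design text names 168 h as the last time. There was 1 library per group and the number of animals in each is not given, so no test between groups was possible. All intervals are exact 95% binomial intervals that cover counting error only.

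The libraries held 14569, 11663, 12588 and 14560 cells at 0, 12, 24 and 96 h, with 62481134, 60515205, 76597006 and 79516878 UMIs (unique molecular identifiers, each counting 1 captured message). After cells with under 200 genes or over 10% mitochondrial UMIs were left out, 12073, 11027, 11371 and 13561 cells remained. The barcode lists stand apart from the matrices: the control list has 4340 entries for 14569 cells, and the 24 h list has the 11663 barcodes of the 12 h list for 12588 cells. Cells were therefore taken from the matrix columns, and the number of cells with identical counts in a pair of libraries was 0 for every pair. Cells were gated into lineages when at least 2 fixed marker genes of that lineage had a UMI, and none of those markers is a member. Of the fixed markers, 6 of 6 were listed for T cells, 5 of 6 for B cells, 7 of 7 for NK cells and 6 of 6 for monocytes. None of these was at 0 in any library, and 10, 48, 65 and 14 cells were neutrophil-gated at 0, 12, 24 and 96 h, few as in a label of mononuclear cells.

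The gene names bear on every level below. The labels give mouse and mm10. Of the 16152 names 12518 are mouse symbols, and so are 76 of the 89 members. Names beginning with RT1- number 28, those with AABR07 1691 and those with H2- 0. RT1- and AABR07 names are of rat type, and which annotation was used is not given. The coding lengths and start windows below are of mouse and were matched by symbol, so they may differ from the sequences counted. In 8 standard members the level averaged under 5 CPM (counts scaled to a fixed total of UMIs per library and class) over the libraries, among them Rps6, Rps19, Rpl8 and Rplp2, which every ribosome holds. Copies carried the counts for others. In the control library Rps18l1 stood at 6489 CPM and Rps18 at 16.7 CPM, and Rps10l1 at 2939 CPM against 126 CPM for Rps10. Levels by name are therefore uncertain where near-identical copies share reads, and the names that are not standard held 11.5%, 11.3%, 11.7% and 11.7% of the family's UMIs at 0, 12, 24 and 96 h.

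The windows below show, for 8 members on which the results turn, the longest pyrimidine run between 50 bases before and 50 bases after the listed gene start. They were chosen after the values were seen, as members that were low at 24 and 96 h (Rps27, Rps21, Rps25, Rpl37, Rps28) or that differed between lineages (Rpl10, Rpl36al, Rps27l). Each is 30 bases, 5′ to 3′ on the gene's strand, from RefSeq on GRCm38.p6, and capitals mark the run of C and T.
Rps27: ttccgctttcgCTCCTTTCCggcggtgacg
Rps21: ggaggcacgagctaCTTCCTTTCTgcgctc
Rps25: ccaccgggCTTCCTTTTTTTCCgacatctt
Rpl37: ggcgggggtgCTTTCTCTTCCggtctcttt
Rps28: tctgtcccgaggaTTCCTgggtaccgcgtg
Rpl10: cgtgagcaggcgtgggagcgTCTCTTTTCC
Rpl36al: gctctgttcgTCCCTTTCCTgttcggcgcg
Rps27l: ccccgcctccaCTCCTCTCCactcctcccc

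Rps27 lies at chr3:90213632-90213661 on the minus strand, Rps21 at chr2:180257399-180257428 on the plus strand and Rps25 at chr9:44407684-44407713 on the plus strand. Rpl37 lies at chr15:5116631-5116660 on the plus strand, and Rps28 at chr17:33824567-33824596 on the minus strand. Rpl10 lies at chrX:74270836-74270865 and Rps27l at chr9:66946053-66946082, both on the plus strand, and Rpl36al at chr12:69184020-69184049 on the minus strand. The run is 14 bases in Rps25, 11 in Rpl37, 10 in Rps21, Rpl10 and Rpl36al, 9 in Rps27 and Rps27l and 5 in Rps28, with the Rpl10 run ending where the table's window ends. Of the 58 members with an entry, 48 (82.8%) hold a run of at least 8 C or T on the gene's strand between these bounds, as do 10614 of 27025 symbols in the table (39.3%). Counted from the listed gene start, the runs begin at base -22 in Rps25 and Rps27l, -21 in Rps28 and -2 in Rps27. They begin at base 28 in Rpl37 and Rpl36al, 34 in Rps21 and 40 in Rpl10. Only the Rps27 run spans the listed start, so the others are not shown to be tracts at the 5′ end of a message. Such a match describes letters and is no measured site. Rpl30, Rpl32, Rpl36 and Rpl3 had no entry.

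Of all UMIs the family gave 24.8% in the control, then 22.3%, 24.0% and 29.1% in the libraries of 12, 24 and 96 h. It was a family of many similar members: 60 of the 89 averaged at least 1000 CPM over the libraries. Among the highest were Rps27, Rpl41, Rplp0 and Rps23, at mean levels of 7458, 7354, 7225 and 6755 CPM. Rps27 and Rps23 belong to the small subunit, Rpl41 is the smallest protein of the large subunit, and Rplp0 is the base of the stalk that recruits elongation factors. Rplp2, its stalk partner, was at 3.30 CPM and Rplp1 was not analysed here. Rpsa, the small-subunit protein also known as a laminin receptor, was at 3629, 3346, 3839 and 4707 CPM at 0, 12, 24 and 96 h. All these values count UMIs at the 5′ end and were not divided by length.

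The lineages differed far more than the times. In the control library the family gave 34.8% of UMIs in T-gated cells, 25.7% in B-gated, 24.0% in NK-gated and 15.3% in monocyte-gated cells. The 10 neutrophil-gated cells of that library gave 4.42%, and the 22 dendritic-gated cells 22.9%. The order T, B, NK, monocyte held in each of the 4 libraries. B-gated and NK-gated cells were neighbours, and the quartile ranges of their cells overlapped (22.6 to 28.5% and 20.7 to 26.4%). Those of T-gated cells (31.5 to 38.3%) and monocyte-gated cells (12.2 to 15.8%) lay apart from both.

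**Figure D1:**
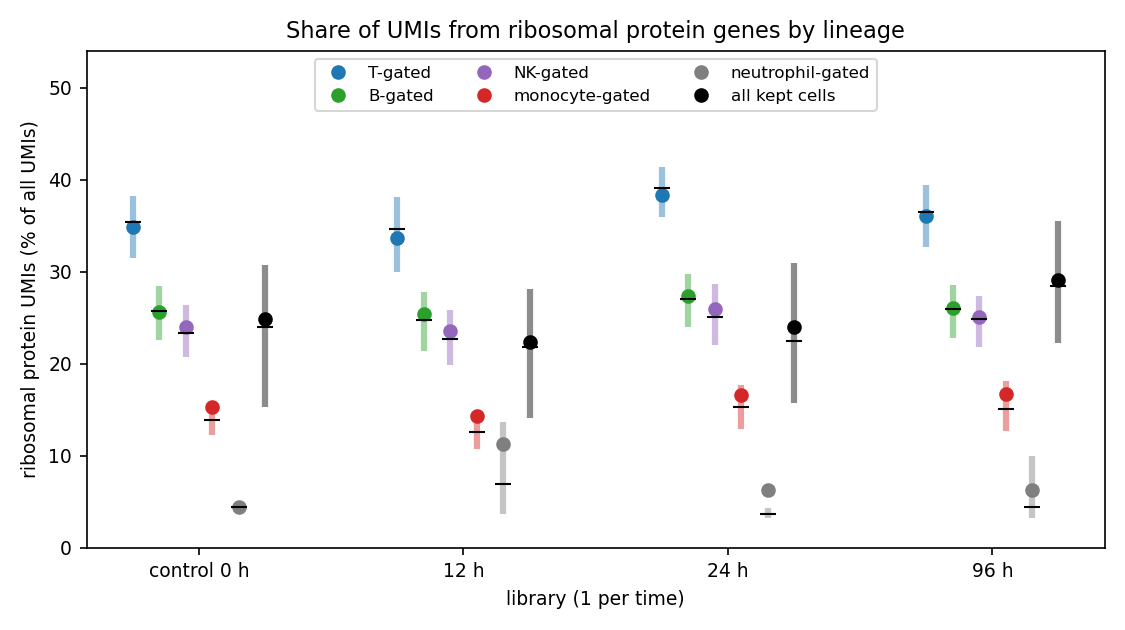
Share of UMIs from ribosomal protein genes (% of all UMIs, vertical axis) in each of the 4 libraries (horizontal axis), by gated lineage. Points are shares of summed UMIs, bars span the lower to the upper quartile of the cells and ticks mark the median cell. T-gated cells sit at 33.7 to 38.3%, monocyte-gated cells at 14.3 to 16.7%, and all kept cells move from 22.3% at 12 h to 29.1% at 96 h.

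Within each lineage the share was lowest at 12 h and higher at 24 h. T-gated cells stood at 34.8%, 33.7%, 38.3% and 36.1% at 0, 12, 24 and 96 h. Relative to control the 3 later values were 0.967 (0.966 to 0.968), 1.1016 (1.1004 to 1.1029) and 1.037 (1.036 to 1.038). B-gated cells stood at 25.7%, 25.4%, 27.4% and 26.1%, with ratios of 0.990, 1.07 and 1.02. NK-gated cells stood at 24.0%, 23.5%, 25.9% and 25.03%, with ratios of 0.978, 1.08 and 1.04. Monocyte-gated cells stood at 15.3%, 14.3%, 16.6% and 16.7%, with ratios of 0.937, 1.08 and 1.09. In these 4 lineages the 12 h value was therefore below the control and the 24 and 96 h values above it, with the T, B and NK values highest at 24 h. The 12 h direction depended on the cells kept. With at most 5% mitochondrial UMIs, which left 584 control cells, it turned to 1.06 in both T-gated and monocyte-gated cells, and in B-gated cells it turned to 1.01 with no cell filter and 1.03 with gates at 3 markers. With 1 library each, spread between animals is not known.

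UMIs per cell differed as well. In T-gated cells the mean was 1843 family UMIs and 3452 other UMIs per cell in the control, 2050 and 4039 at 12 h, 2591 and 4167 at 24 h and 2208 and 3909 at 96 h. The share thus was lower at 12 h with more family UMIs per cell than in the control. At matched depth the order of the times in T-gated cells was the same: cells of 4000 to 8000 UMIs gave 35.9%, 35.1%, 38.6% and 36.7%. In NK-gated cells of that depth it was 24.6%, 24.6%, 25.6% and 24.9%. B-gated cells differed by bin: those of 2000 to 4000 UMIs gave 25.8%, 24.3%, 26.8% and 25.4%, with the 96 h value below the control. Those of 4000 to 8000 UMIs gave 25.9%, 26.5%, 28.7% and 27.0%, and those over 8000 gave 25.2%, 28.7%, 29.6% and 27.3%, both with the 12 h value above it. In monocyte-gated cells of 4000 to 8000 UMIs the values were 15.1%, 12.8%, 14.1% and 14.8%, so all 3 later libraries lay below the control. Deeper monocyte-gated cells, over 8000 UMIs, gave 20.2%, 17.2%, 18.1% and 19.4%. The monocyte-gated cells over 8000 UMIs numbered 294, 554, 1774 and 536, and the higher pooled monocyte share at 24 and 96 h was not seen within these bins of depth. Mitochondrial UMIs were 7.42%, 6.21%, 6.70% and 6.49% of all UMIs, and haemoglobin and Alas2 messages summed to 48.0, 103, 22.2 and 58.8 CPM in T-gated cells (4 of 9 listed names are in the files, none at 0). Pancreatic acinar names, 4 of 10 in the files, summed to 0.574 to 1.19 CPM in all cells. The part of these in the shares was not tested.

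To separate which cells gave the UMIs from what each class held, the difference from control was split over the gate classes by exact arithmetic, with mixed and ungated cells as classes of their own. At 12 h the share was 2.50 points below the control, of which -1.26 came from the mix of classes and -1.23 from within them. At 24 h it was 0.83 points below, from a mix part of -2.44 and a within part of +1.61, which had opposite signs. At 96 h it was 4.25 points above, from +2.97 of mix and +1.28 of within. At the limit of 5% mitochondrial UMIs the mix part turned to 0.935 points at 12 h and 0.299 at 24 h and the within part at 12 h to 1.02. The mix parts followed T-gated and monocyte-gated cells. T-gated cells gave 30.6%, 21.2%, 21.9% and 45.5% of all UMIs at 0, 12, 24 and 96 h, and monocyte-gated cells gave 32.1%, 34.4%, 46.8% and 16.5%. At 24 h the mix part held -1.05 points from T-gated and -1.25 from monocyte-gated cells, and at 96 h +1.27 and +1.704. The within part at 24 h held +0.93 points from T-gated cells, +0.51 from monocyte-gated and +0.22 from B-gated cells. At 12 h its largest piece was -0.47 points from the mixed cells, whose share went from 24.1% to 20.8%. Scrublet, which calls doublets (droplets that hold several cells), called 58.2% of mixed cells in the control and 44.0% at 12 h. A change in which lineages such cells combine would count as within, and was not tested. The split without mixed and ungated cells is given further below.

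**Figure D2:**
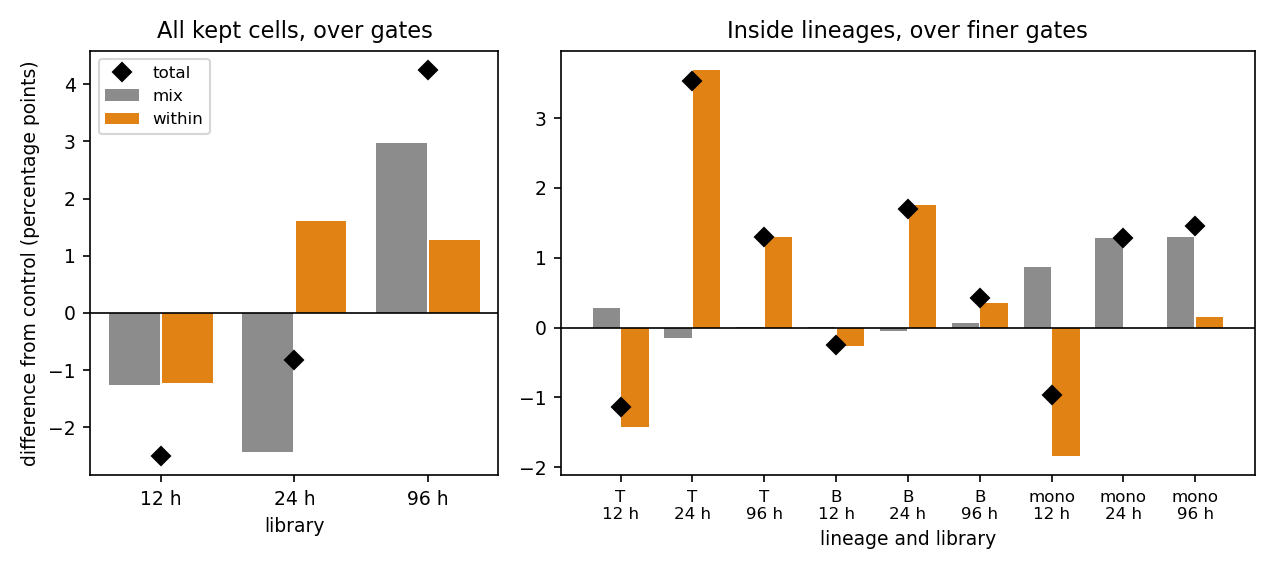
Difference in family share from control (percentage points), split into a part from the mix of classes (grey) and a part from within classes (orange), with the total as a diamond. The left panel covers all kept cells and the right panel T-gated, B-gated and monocyte-gated cells over finer gates. At 24 h the 2 parts have opposite signs for all cells, -2.44 and +1.61 points, and in monocyte-gated cells the mix part is +1.29 points.

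A lineage can hide a mix of its own, so the split was repeated inside lineages with finer gates. Monocyte-gated cells were divided by whether they held more UMIs of Fn1, Vcan and F13a1, found in classical monocytes, or of Cx3cr1, Spn and Nr4a1, found in nonclassical monocytes. Cells with more classical markers made up 13.4%, 29.7%, 38.8% and 36.5% of monocyte-gated cells. Their family share was 18.7%, 15.6%, 17.8% and 18.8%, and that of cells with more nonclassical markers 14.1%, 13.2%, 14.8% and 14.3%. The monocyte difference at 24 h, +1.28 points, was +1.29 of mix and -0.0063 of within, and that at 96 h, +1.45 points, was +1.29 of mix and +0.15 of within. At 12 h the within part was -1.83 points against +0.87 of mix. In this split the higher monocyte share at 24 and 96 h lay nearly all in the mix part, and the lower share at 12 h in the within part. The small within part at 24 h joined opposite directions. Cells with classical markers stood at 17.8% against 18.7% in the control, and those with nonclassical markers at 14.8% against 14.1%. UMIs per cell were not held equal here, and their part in the split was not tested.

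T-gated cells gave another picture. Those with Cd8a or Cd8b stood at 36.8%, 35.2%, 39.0% and 37.6%, and those with Cd4, only 6.97 to 9.46% of T-gated cells, at 31.3%, 30.2%, 37.0% and 34.0%. At 24 h the T difference of +3.54 points was -0.15 of mix and +3.69 of within. T-gated cells with neither Cd4 nor Cd8 messages, or with both, were kept as a class of their own. They made up 49.9%, 36.9%, 55.0% and 48.9% of T-gated cells at 0, 12, 24 and 96 h. B-gated cells were divided by whether they held a UMI of Fcer2 or Cr2. The B difference of +1.699 points at 24 h was -0.056 of mix and +1.76 of within. In T-gated and B-gated cells nearly all of the 24 h difference therefore lay within these finer gates. A mix of cells inside such a class, as in the undivided T-gated cells, falls in the within part. Finer classes of cells were not analysed here.

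Single members stayed close to the family. Of the 89 members, 68 to 71 passed the level needed for a ratio (50 CPM in either library and 20 UMIs over both) in each lineage and time. None of the lineages had a member at least 1.5-fold from control at 96 h. At 24 h, 1 member was at least 1.5-fold lower in each of the 4 lineages, beside 3.32% of all tested genes in T-gated, 1.83% in B-gated, 2.72% in NK-gated and 9.06% in monocyte-gated cells, and the member was Rpl30 each time. At 12 h, 1 member, Rps27l, was at least 1.5-fold higher in monocyte-gated cells, beside 8.44% of all genes, and 0 were in the other lineages, beside 3.91%, 1.24% and 2.68% of genes in T-gated, B-gated and NK-gated cells. At 96 h the higher share over all genes was 0.558%, 0.609%, 2.52% and 2.88% in T-gated, B-gated, NK-gated and monocyte-gated cells, and the lower share 0.71%, 0.894%, 1.2% and 2.85%. At 24 h no member was 1.5-fold higher, beside 1.22%, 1.18%, 2.44% and 5.28% of genes, and at 12 h none was lower, beside 1.93%, 1.91%, 1.8% and 6.15%. The members' share was near or below the background in each case. Relative to the family total, 1 member was at least 1.5-fold lower at 24 h in T-gated, B-gated and NK-gated cells and 2, Rpl30 and Rps25, in monocyte-gated cells, beside 6.84%, 3.25%, 4.55% and 14.4% of genes. None was that much higher than the family at 24 h, beside 0.969%, 0.812%, 1.5% and 3.71% of genes. At 12 h, 0 were higher than the family in T-gated, B-gated and NK-gated cells, beside 5.06%, 1.43% and 2.92%, and 1, Rps27l, was in monocyte-gated cells, beside 11.8%. At 12 h none was lower, beside 1.69%, 1.75%, 1.56% and 4.13% of genes. At 96 h none was higher, beside 0.304%, 0.609%, 1.8% and 2% of genes, or lower, beside 1.06%, 1.02%, 1.64% and 5.92%.

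The median member followed the family. Its log2 ratio to control in T-gated cells was -0.04, 0.17 and 0.10 at 12, 24 and 96 h, where the median of all tested genes was 0.09, -0.09 and 0.03. In monocyte-gated cells the member medians were -0.08, 0.13 and 0.15 beside 0.01, -0.09 and -0.03 for all genes. The B medians were -0.01, 0.13 and 0.07 and the NK medians -0.03, 0.15 and 0.09. At 24 h, 53 of 71 members in T-gated and 49 of 68 in monocyte-gated cells were above control, beside 35.3% and 40.3% of all tested genes.

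Rpl30, a small protein of the large subunit, was the member furthest from its family at 24 h in each of the 4 lineages. Its part of the family's UMIs in T-gated cells was 0.257% in the control, 0.204% at 12 h, 0.117% at 24 h and 0.223% at 96 h. B-gated cells had 0.279%, 0.223%, 0.166% and 0.253%, and NK-gated cells 0.251%, 0.208%, 0.126% and 0.225%. Monocyte-gated cells had 0.245%, 0.178%, 0.131% and 0.210%. Every lineage was lowest at 24 h and nearer to the control at 96 h. The ratio relative to the family at 24 h was 0.455 (0.442 to 0.468) in T-gated, 0.596 (0.571 to 0.621) in B-gated, 0.504 (0.462 to 0.549) in NK-gated and 0.536 (0.518 to 0.554) in monocyte-gated cells, from 7032, 3610, 935 and 7280 UMIs. At 12 h it ranged over lineages from 0.728 to 0.827 and at 96 h from 0.856 to 0.904. The level itself in T-gated cells was 893 CPM in the control and 448 CPM at 24 h. The name Rpl30l1, a copy, was at most at 0.409 CPM in all cells. In classical-marker and nonclassical-marker monocytes alike the 24 h part was below that of the other libraries, at 0.122% and 0.146%.

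A second group of members was lower within the family at 24 and 96 h in each lineage. Rps28, a very small protein of the small subunit, made up 1.79%, 1.85%, 1.27% and 1.25% of the family in T-gated cells at 0, 12, 24 and 96 h. In B-gated cells it made up 1.80%, 1.94%, 1.32% and 1.28%, and in monocyte-gated cells 1.54%, 1.81%, 1.15% and 1.16%. NK-gated cells had 1.55%, 1.77%, 1.103% and 1.19%. Values at 0 and 12 h were high and those at 24 and 96 h low in each. Its ratio relative to the family ranged over the 4 lineages from 0.707 to 0.747 at 24 h and from 0.697 to 0.771 at 96 h, but from 1.03 to 1.18 at 12 h.

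Rps21, another short protein of the small subunit, stood at 0.932%, 1.04%, 0.696% and 0.696% of the family in T-gated cells, and its ratios ranged from 0.743 to 0.772 at 24 h and 0.737 to 0.768 at 96 h. Rps27, a zinc-finger protein of the small subunit, ranged from 0.738 to 0.817 and from 0.755 to 0.821. Rpl37 and Rpl37a, zinc-binding proteins of the large subunit, ranged from 0.734 to 0.809 and 0.760 to 0.880 at 24 h. Rps25, a small-subunit protein known for its part in internal ribosome entry, ranged from 0.654 to 0.752 at 24 h and was the lowest member in monocyte-gated cells at 96 h, at 0.722 (0.703 to 0.742). Of the 68 members measured in all 4 lineages, 11 were at or under 0.9 of the family in each lineage at 24 h, 9 at 96 h and 2 at 12 h. Of all genes tested in the 4 lineages, 23.9% were at 24 h, 5.84% at 96 h and 2.12% at 12 h, so the members' share lay below that of all genes at 24 h and above it at 96 h. The members at or under 0.9 at 24 h were Rpl22l1, Rpl30, Rpl32, Rpl32.1, Rpl36, Rpl37, Rpl37a, Rps21, Rps25, Rps27 and Rps28. At 96 h they were the same without Rpl22l1 and Rpl30, and at 12 h they were Rpl17 and Rpl30. At or above 1.1 in each lineage there was 1 member at 24 h, Rplp0, beside 1.01% of all genes, and none at 12 or 96 h, beside 11.2% and 1.46%. The moving divisor bears on these percentages too.

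**Figure D3:**
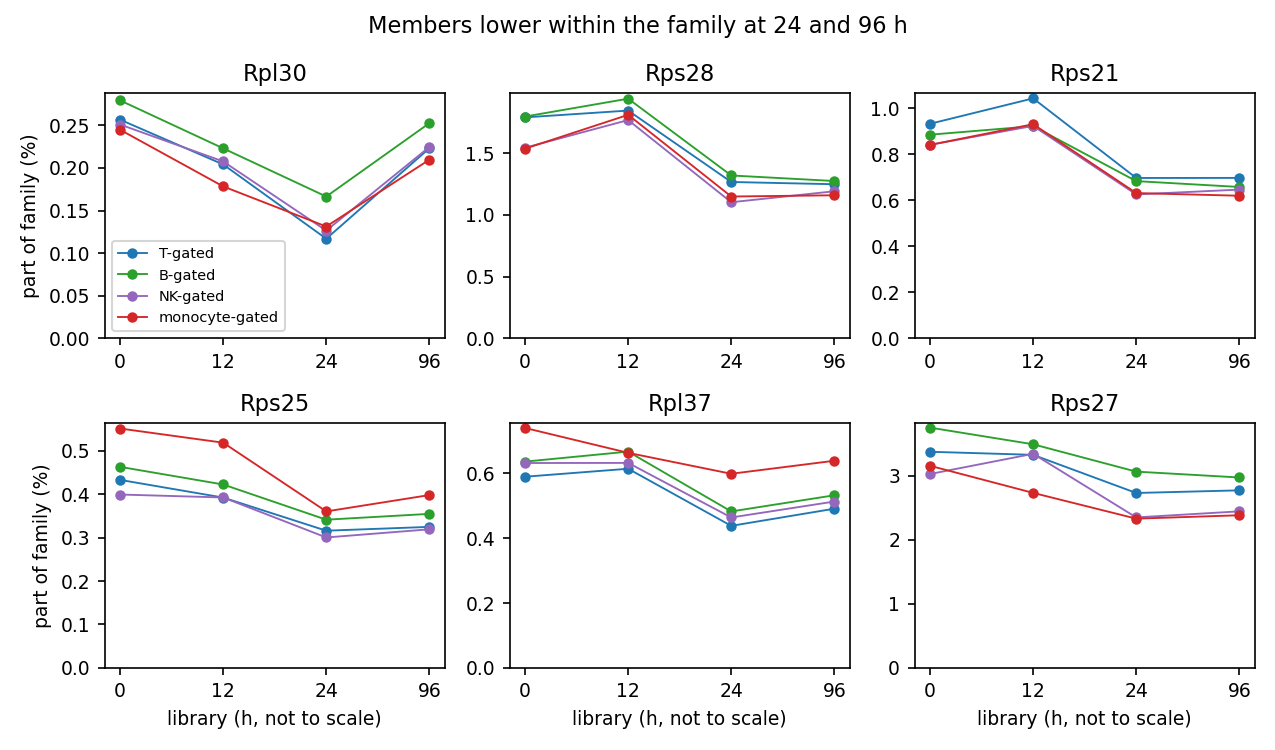
Part of the family's UMIs (%, vertical axis) held by 6 members in the 4 libraries (0, 12, 24 and 96 h, not to scale), 1 line for each gated lineage. Rpl30 is lowest at 24 h in every lineage, at 0.117% in T-gated cells, while the other 5 are lower at 24 and 96 h than at 12 h, least so for Rpl37 in monocyte-gated cells.

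Because the control stands in every such ratio, the same members were also set against the 12 h library. Rps28 ranged over lineages from 0.623 to 0.686 of its 12 h part at 24 h and from 0.640 to 0.676 at 96 h. Rps21 ranged from 0.668 to 0.741 and from 0.666 to 0.713, and Rps27 from 0.703 to 0.878 and from 0.731 to 0.872. For these members, picked by the same 24 and 96 h values, the step between 12 and 24 h was there without the control. It was smaller for others: Rpl37 ranged from 0.713 to 0.903 at 24 h and from 0.798 to 0.963 at 96 h, with the highest values in monocyte-gated cells. Rpl37a ranged from 0.768 to 0.925 and from 0.803 to 0.921. Rpl30 differed from them, at 0.573 to 0.746 of its 12 h part at 24 h and 1.08 to 1.18 at 96 h.

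These members have short reading frames: 207 coding bases in Rps28, 249 in Rps21, 252 in Rps27, 276 in Rpl37a and 291 in Rpl37, from GENCODE vM21. Across the 60 to 63 tested members with a length, Spearman's rho between coding length and the ratio to control ranged over lineages from 0.49 to 0.68 at 24 h and from 0.59 to 0.79 at 96 h. At 12 h it ranged from -0.08 to 0.21. Whole transcript length, which was tried first, gave 0.36 to 0.47 at 24 h and 0.33 to 0.54 at 96 h. At 12 h that measure lay between -0.26 and 0.10. Members share their cells and libraries, so these are descriptions. Among all other tested genes rho with coding length was negative at 24 h, from -0.35 to -0.26, and at 96 h, from -0.27 to -0.09. In T-gated cells at 96 h, 18 of 20 members under 400 coding bases were below the family, 9 of 25 between 400 and 600, and 1 of 18 at 600 or more. Of the other tested genes in these bins 48.2%, 40.7% and 58.4% were below the family. The shortest, Rpl41 at 138 bases, was no exception in T-gated cells (0.891 at 24 h), but stood at 1.08 in monocyte-gated cells. Rpl3, at 1209 bases, was the highest member in T-gated cells at 24 h, at 1.14 (1.13 to 1.16).

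Between libraries the relation was weaker within 2 pairs. It ranged over lineages from -0.08 to 0.21 when 12 h was set against 0 h. When 96 h was set against 24 h it ranged from -0.33, in NK-gated cells, to 0.16. Setting 24 h against 12 h gave 0.49 to 0.62, and 96 h against 12 h 0.47 to 0.55. The labels give no batch or date for the libraries, so a difference in preparation and the time after cerulein cannot be told apart.

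**Figure D4:**
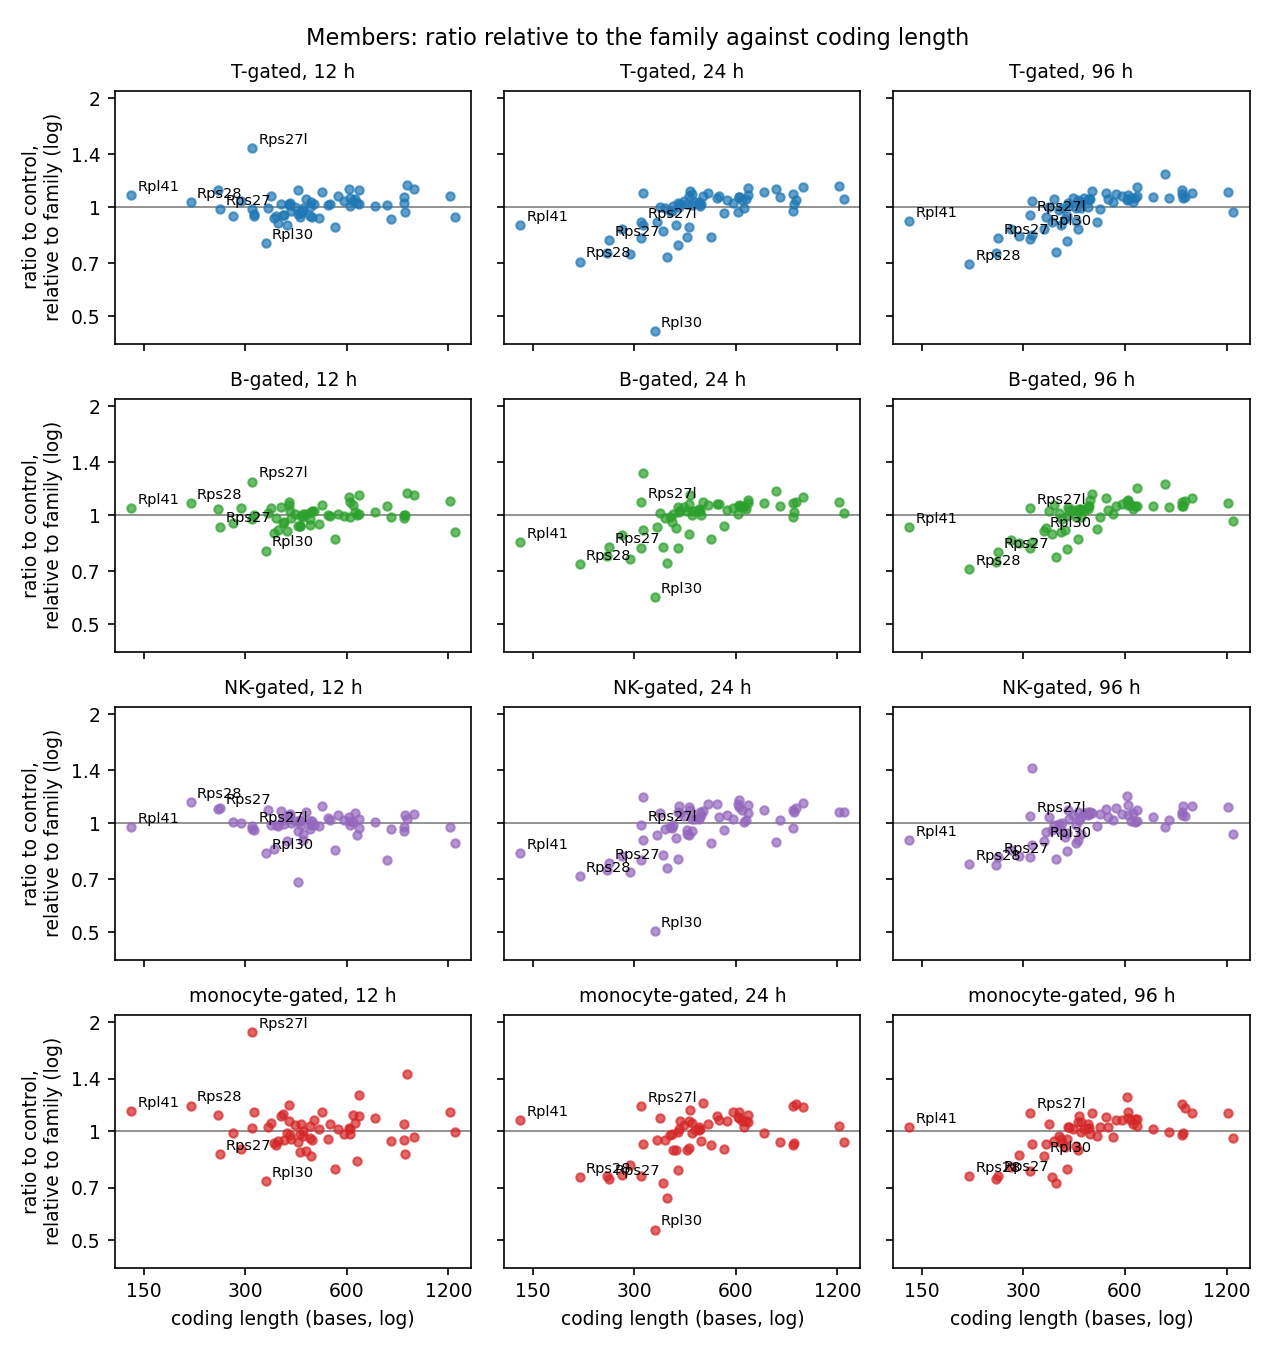
Ratio to control relative to the family (vertical, log scale) against coding length in bases (horizontal, log scale), 1 point per tested member, with rows for the 4 gated lineages and columns for 12, 24 and 96 h. Short members such as Rps28 and Rps27 lie below 1 at 24 and 96 h in each lineage, and Rpl30 stands apart at 24 h.

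Rps27l, a close relative of Rps27 known as a p53 target, was the 1 member at least 1.5-fold higher at 12 h, in monocyte-gated cells. Its part of the family in monocyte-gated cells was 0.0943% in the control, 0.177% at 12 h, 0.111% at 24 h and 0.106% at 96 h. Only the 12 h library was high, at 1.88 times the control relative to the family (1.79 to 1.97, 5077 UMIs). In monocyte-gated cells of 2000 to 8000 UMIs it was 1.41, and the member was no longer past 1.5-fold. T-gated cells had 0.0329%, 0.0480%, 0.0299% and 0.0312%, a ratio of 1.46 (1.37 to 1.56) at 12 h (1.02 at the limit of 5% mitochondrial UMIs), and B-gated cells 1.24 (1.13 to 1.36). NK-gated cells, at 0.984 (0.862 to 1.13), included 1 in their interval. Among monocytes it was 0.211% at 12 h against 0.0998% in the control in cells with classical markers, and 0.140% against 0.0922% in those with nonclassical markers. Rps2, a small-subunit protein near the message entry, was also higher in monocyte-gated cells at 12 h, at 2.66% against 1.85% of the family.

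The extremes of the other comparisons were small. They were taken by the bound of the counting interval nearest 1, so a member with few UMIs can have a larger ratio. In B-gated cells this picked Rps2 at 12 h, at 1.15 (1.14 to 1.17), where Rps27l had 1.24 (1.13 to 1.36). It picked Rpl36a at 24 h, at 1.30 (1.13 to 1.51), and Rpl10a at 96 h, at 1.19 (1.15 to 1.22), where Rps4x had 1.22 (1.098 to 1.36). In NK-gated cells Rps28 was highest at 12 h at 1.15 and Rpl36a at 96 h at 1.43 (1.1003 to 1.86, 199 UMIs). Rpl36a passed the 50 CPM level in 1 lineage at 12 h, 3 at 24 h and 2 at 96 h. In B-gated and NK-gated cells it was under that level in the control and passed only through the later library. Its place as highest member there therefore depends on the level filter. Rps19bp1 was lowest in NK-gated cells at 12 h at 0.689 (0.553 to 0.859, 180 UMIs), and is no ribosomal protein. In T-gated cells Rps4x was highest at 96 h at 1.23 (1.16 to 1.31), but most counts of that protein lie under the name Rps4x.1, and the value was 0.951 at the limit of 5% mitochondrial UMIs. In monocyte-gated cells Rps9l1 was highest at 24 h at 1.25 (1.23 to 1.26) and Rpl13a at 96 h at 1.24 (1.18 to 1.30). Rps28 was the lowest at 96 h in T-gated and B-gated cells, and in NK-gated cells Rps21 at 0.768 (0.738 to 0.8003) and Rps28 at 0.771 (0.749 to 0.795) had overlapping intervals.

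Some members differed between lineages in each library. Over the 4 lineages, 9 of 71 members differed at least 1.5-fold in their part of the family in the control library, and 10, 11 and 12 at 12, 24 and 96 h, with a median range of 1.21-fold in the control. Measured the same way against the family total, 95.3%, 95.5%, 96% and 95.6% of all genes differed by that much. The family total itself differs between lineages, at 34.8% of UMIs in T-gated and 15.3% in monocyte-gated cells of the control. A gene at an equal level in all 4 lineages would therefore pass that bound, so these shares are no like background for the members. The widest ranges in the control were those of Rps27l, Rpl10 and Rpl36al. Rpl10, a large-subunit protein that joins late in assembly, made up 1.33%, 1.45%, 1.63% and 3.33% of the family in T-gated, B-gated, NK-gated and monocyte-gated cells of the control. In monocyte-gated cells it was 2.76% at 12 h, 3.57% at 24 h and 3.60% at 96 h, above every other lineage each time. At 12 h it was at 2.60% against 3.73% in the control in cells with classical markers, and at 2.93% against 3.18% in those with nonclassical markers. Rpl36al, a copy of Rpl36a, went the other way, with 1.21% in T-gated, 0.863% in B-gated, 0.991% in NK-gated and 0.569% in monocyte-gated cells of the control.

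Rplp0 made up 3.84%, 3.70%, 4.49% and 4.31% of the family in monocyte-gated cells at 0, 12, 24 and 96 h, and 2.31%, 2.59%, 2.62% and 2.52% in T-gated cells. Rpl18, of the large subunit, was likewise highest in monocyte-gated cells, at 1.46% against 0.797% in B-gated cells of the control. Rpl12, which sits at the stalk base, was highest in T-gated cells, at 1.499% against 0.879% in monocyte-gated cells. All of these kept their highest lineage in each of the 4 libraries. Since copies may share reads, the order between Rpl36al and Rpl36a, or Rps9l1 and other copies of that gene, is uncertain.

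**Figure D5:**
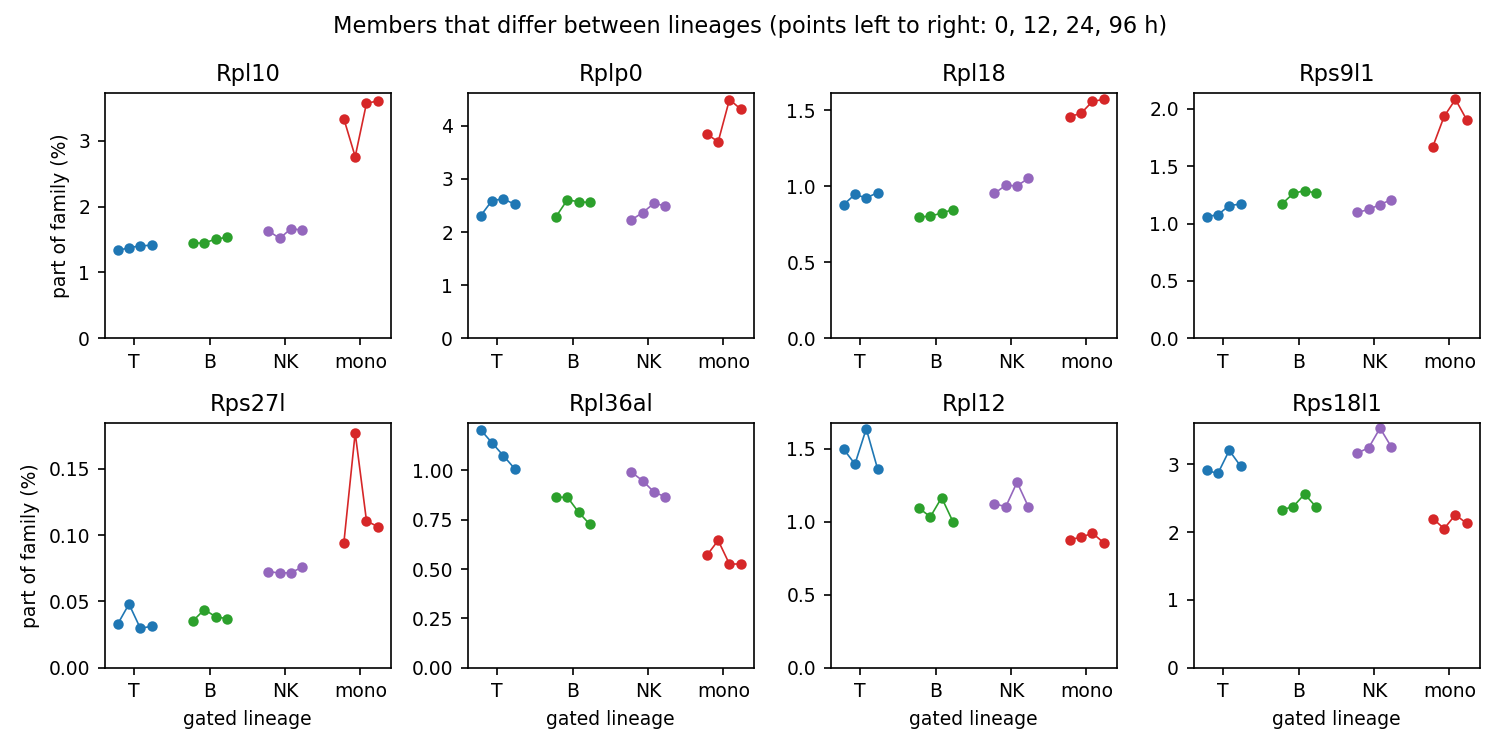
Part of the family's UMIs (%, vertical axis) held by 8 members in T-gated, B-gated, NK-gated and monocyte-gated cells, with 4 points per lineage for 0, 12, 24 and 96 h from left to right. Rpl10, Rplp0, Rpl18, Rps9l1 and Rps27l are highest in monocyte-gated cells in each library, and Rpl36al and Rpl12 are highest in T-gated cells.

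Other copies and -like names spanned a wide range of counts. Rpl22l1, the paralog of Rpl22, made up 0.359% of the family in T-gated cells of the control beside 0.878% for Rpl22. Rps18l1 made up 2.91% in T-gated and 2.20% in monocyte-gated cells of the control. Rpl3l, known from muscle, was at 1.89 to 3.71 CPM in all cells, Rpl10l, known from testis, at 0.0556 to 0.132 CPM, and Rpl39l at 0 to 0.0699 CPM. Rps4y2 was at 11.4 to 17.1 CPM, Rpl7l1 at 2.29 to 3.09 CPM and Rplp0l1 and Rps15al4 at most at 0.378 CPM.

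Other genes of translation were read from fixed lists. Rack1, a ribosomal protein whose name the rule does not match, was at 0.993 of control at 12 h in T-gated cells and at 1.15 at 24 h. No elongation factor of 5, no initiation factor of 12 in the files and none of 6 other terminal oligopyrimidine messages was 1.5-fold from control in any lineage, where the share of all genes in 1 direction ran from 0.558% to 9.06%. Lists this short at that background leave little to read from a count of 0. Of the ribosome assembly genes, 4 to 10 of 16 were tested, and the 1 past 1.5-fold was Gnl3, lower in T-gated cells at 24 and 96 h. Of the genes that control the family, 2 to 4 of 10 in the files were tested. Past 1.5-fold at 24 h were Myc, higher in T-gated and B-gated cells, and Ddit4, lower in T-gated and monocyte-gated cells. Of all genes, 1.22% and 1.18% were that much higher in T-gated and B-gated cells. In T-gated and monocyte-gated cells 3.32% and 9.06% were that much lower. In B-gated cells Myc was not among the tested genes at 12 and 96 h, so it passed the level needed only through the 24 h library. Eef1a1, which brings amino-acyl tRNA to the ribosome and has a terminal oligopyrimidine message, stood at 0.86 of control at 24 h in T-gated cells while the family stood at 1.102. It was the lowest of the 5 elongation factors there, and 4 of the 5 were above control, with a median log2 ratio of 0.18. Of the 6 other terminal oligopyrimidine messages 4 were above control in the same cells, with a median log2 ratio of 0.09. Of the mitochondrial ribosomal proteins, 11 of 38 tested were at least 1.5-fold higher in monocyte-gated cells at 12 h and 0 lower. The shares of all genes were 8.44% and 6.15%, and the median log2 ratio of the 38 was 0.42. The level needed, 50 CPM in either library, let in 38 of 72 names at 12 h, 30 at 24 h and 28 at 96 h. Some names thus passed through the 12 h library alone, which favours higher ratios, and these were not set apart. Mrps6 was the highest of the 38, at 66.7 CPM in the control and 120 CPM at 12 h. The cytosolic family stood at 0.937 of control in the same cells. All genes outside the family there had a median log2 ratio of 0.29 under 400 coding bases, 0.16 at 400 to 600 and -0.03 at 600 or more. A background of like length for the mitochondrial ribosomal proteins was not analysed here. Myc, which drives ribosome production, was at 68.9, 79.5, 108 and 68.1 CPM in T-gated cells at 0, 12, 24 and 96 h. Ddit4, a brake on mTOR signalling, was at 78.5, 60.6, 48.2 and 78.4 CPM there, and at 474, 337, 211 and 338 CPM in monocyte-gated cells. Gnl3, a nucleolar protein of ribosome assembly, stood at 77.4, 53.5, 48.9 and 51.1 CPM in T-gated cells.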

How the data were processed

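The authors deposited 1 matrix of raw UMI counts, genes by cells, per library, and per the labels' protocols these come from 10x Genomics 5′ libraries. Cell Ranger, Seurat and mm10 are named in the submitters' processing notes, but no version, role or annotation is. The members, lists and parts described were chosen with earlier results of these data known. Filter, gates and thresholds were used as first written down. A cell was kept if it had 200 or more genes and its mitochondrial UMIs made up 10% or less, and UMIs were summed per gate class and library and scaled to CPM. A cell passing T and NK gates counted as T; cells passing other pairs were kept apart as mixed (7.56%, 9.59%, 7.40% and 7.31% of cells). No doublets were removed; removal with Scrublet is among the alternatives.

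The mix part sums each class's change in UMI weight times its mean share less the mean share of all kept cells. Taking off the share of all cells sets the pieces by class and leaves their sum unchanged. The within part sums each class's change in share times its mean weight. Means are over the control and the later library. Ratios need 50 CPM in either library and 20 UMIs over both, a side at 0 counts as 3 UMIs, and 1.5-fold is the call; with 1 library per group there is no test. Named members are the 5 highest, the largest and smallest ratio relative to the family per lineage and time (by the interval bound nearest 1), the 3 widest lineage ranges, copies, Rpsa and stalk proteins; some of these are not reported here. Set after the files were seen were the rule for finer gates (more UMIs of 1 marker set; any Cd8a, Cd8b or Cd4 UMI; Ccr2, Ace and Treml4 not analysed here), the classing of names, the length analysis (transcript length first, coding length second), the bins at 400 and 600 bases, the bounds 0.9 and 1.1, and the members drawn and printed. Lengths match by symbol, for at least 88.2% of tested members. Ratios and split were tested on simulated data. Python 3.11.15 was used, with scikit-learn 1.9.0 for clusters, scipy 1.17.1 for intervals, matplotlib 3.10.9, pandas 2.3.3 and numpy 2.4.6.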

Additional observations from a re-analysis of the deposited data

Results flagged for a closer look

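In each of the 4 lineages the difference in family share from control was negative at 12 h and positive at 24 h. The change at 24 h minus that at 12 h was 4.68 percentage points in T-gated, 1.96 in B-gated, 2.43 in NK-gated and 2.24 in monocyte-gated cells. This difference between times was not tested, since each time is 1 library, and both use the same control.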

How the results depend on the processing

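Each alternative changed 1 choice, and counting intervals are so narrow that most values lay outside the reported one's interval. Ratios of the family share to control are given for T-gated, B-gated, NK-gated, monocyte-gated and all cells in this order, then the mix and within parts in points at 12, 24 and 96 h. Without a cell filter, the ratios were 0.975, 1.01, 0.982, 0.94 and 0.913 at 12 h, 1.11, 1.08, 1.08, 1.08 and 0.971 at 24 h, and 1.05, 1.03, 1.05, 1.1 and 1.18 at 96 h, with mix parts of -1.11, -2.37 and 2.96 and within parts of -1.01, 1.67 and 1.42. With gates at 3 markers, the ratios were 0.964, 1.03, 0.974, 0.939 and 0.899 at 12 h, 1.11, 1.1, 1.08, 1.08 and 0.966 at 24 h, and 1.04, 1.03, 1.04, 1.09 and 1.17 at 96 h, with mix parts of -1.41, -2.72 and 2.74 and within parts of -1.09, 1.89 and 1.5. With mixed cells given to the lineage with most marker UMIs, the ratios were 0.963, 0.989, 0.975, 0.934 and 0.899 at 12 h, 1.1, 1.07, 1.09, 1.07 and 0.966 at 24 h, and 1.05, 1.03, 1.05, 1.11 and 1.17 at 96 h, with mix parts of -1.57, -2.74 and 2.85 and within parts of -0.922, 1.91 and 1.39. In cells of 2000 to 8000 UMIs, the ratios were 0.984, 0.967, 0.979, 0.867 and 0.913 at 12 h, 1.09, 1.05, 1.05, 0.978 and 1.02 at 24 h, and 1.03, 1.01, 1.03, 1.01 and 1.18 at 96 h, with mix parts of -0.885, -0.571 and 3.82 and within parts of -1.28, 1.15 and 0.648. Without mitochondrial UMIs, the ratios were 0.955, 0.979, 0.967, 0.925 and 0.888 at 12 h, 1.09, 1.06, 1.07, 1.08 and 0.959 at 24 h, and 1.03, 1.01, 1.02, 1.09 and 1.16 at 96 h, with mix parts of -1.36, -2.64 and 3.21 and within parts of -1.65, 1.54 and 1.07. With standard names only, the ratios were 0.971, 0.992, 0.981, 0.934 and 0.901 at 12 h, 1.1, 1.06, 1.08, 1.08 and 0.964 at 24 h, and 1.04, 1.02, 1.04, 1.09 and 1.17 at 96 h, with mix parts of -1.11, -2.14 and 2.59 and within parts of -1.07, 1.34 and 1.1. As means over cells, the ratios were 0.979, 0.97, 0.974, 0.904 and 0.921 at 12 h, 1.1, 1.05, 1.08, 1.07 and 0.999 at 24 h, and 1.04, 1.01, 1.04, 1.08 and 1.19 at 96 h. Without the cells that Scrublet called doublets (5.49%, 5.11%, 4.07% and 4.66%), an alternative chosen after seeing the data, the ratios were 0.966, 0.989, 0.978, 0.94 and 0.895 at 12 h, 1.1, 1.06, 1.08, 1.09 and 0.961 at 24 h, and 1.04, 1.02, 1.04, 1.1 and 1.17 at 96 h, with mix parts of -1.48, -2.71 and 3.1 and within parts of -1.13, 1.73 and 1.13. At most 5% mitochondrial UMIs left only 584 control cells. For T-gated, monocyte-gated and all cells the ratios then were 1.06, 1.06 and 1.11 at 12 h, 1.14, 1.13 and 1.15 at 24 h, and 1.13, 1.13 and 1.54 at 96 h, the mix parts 0.935, 0.299 and 6.74 and the within parts 1.02, 2.38 and 2.98, so the 12 h values and the all-cell and mix values at 24 h turned direction. The control cells kept here may differ in other ways, and the cause was not tested. With cell weights, the mix parts were -0.667, -1.35 and 3.47 and the within parts -1.22, 1.33 and 1.0. With the control as base, the mix parts were -1.26, -2.35 and 2.99 and the within parts -1.23, 1.7 and 1.31. With finer gates, the mix parts were -0.894, -1.96 and 3.29 and the within parts -1.6, 1.12 and 0.958. With 30 k-means clusters, the mix parts were -1.94, -2.73 and 3.2 and the within parts -0.552, 1.89 and 1.05. With mixed and ungated cells left out (chosen after seeing the data), the mix parts were -1.5, -2.93 and 3.53 and the within parts -0.832, 2.09 and 1.15. The direction also turned for B-gated cells at 12 h without a filter and at 3 markers, and, in cells of 2000 to 8000 UMIs, for monocyte-gated and all cells at 24 h, and the cause was not tested. The signs of the mix and within parts were kept under the settings other than 5% mitochondrial UMIs. Members at least 1.5-fold from control, summed over the 4 lineages, were 1, 4 and 0 at 12, 24 and 96 h, and from the family 1, 5 and 0. With no minimum level, where few counts widen the ratios, they were 24, 37 and 28 and 26, 40 and 32. At 5% mitochondrial UMIs they were 3, 2 and 0 and 3, 3 and 1. In cells of 2000 to 8000 UMIs they were 0, 4 and 0 and 0, 4 and 0. At 3 markers they were 1, 4 and 1 and 1, 5 and 1. With median-of-ratios scaling they were 2, 4 and 0 and 1, 5 and 0. Without mitochondrial UMIs they were 2, 4 and 0 and 1, 5 and 0. Without called doublets they were 2, 4 and 0 and 1, 5 and 0. Without a cell filter they were 1, 4 and 1 and 1, 5 and 0. At 100 CPM they were 1, 4 and 0 and 1, 5 and 0. With mixed cells assigned they were 1, 4 and 0 and 1, 5 and 0. Rps4x in T-gated cells at 96 h, highest at 1.23 relative to the family, was at 0.951 at 5% mitochondrial UMIs, from 70 control cells. No paired analysis was possible because each group has 1 library, and for the same reason no library could be left out. Depth limits the NK-gated, neutrophil-gated and dendritic-gated cells and members under 100 CPM.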
